A study of Schmidtea mediterranea with 6 samples.

Results

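Among the transcripts that were neither rare nor abundant in control planarians, 83 stood at least 1.5-fold higher after knockdown of Smed-myb-1. They are 83 of 80979 assembled transcripts, and 0.453% of the 18317 with a mean of 1 to 100 CPM (reads per 1000000 reads assigned to transcripts) in control animals. The members were chosen by their values in these same libraries. The mean CPM of the myb-1 RNAi libraries had to be at least 1.5 times the control mean, and the lowest myb-1 RNAi library had to lie above the highest control library. The sizes below therefore describe the set and test nothing.

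The animals were Schmidtea mediterranea, a freshwater planarian. The growth protocol names the asexual clonal strain CIW4, whereas the sample labels list differing strain numbers. One group was fed double-stranded RNA against Smed-myb-1 and the other against unc22, a nematode muscle gene used as a control. Both groups were otherwise wild type, had 3 feeds in 1 week after a week of starvation, and gave RNA 6 days after the last feed. Each group has 3 libraries, each of 30 whole animals, and the labels call them biological replicates. The 6 libraries held 30311289 to 41145013 reads assigned to transcripts. The libraries of a group were not level at large, since myb-1 RNAi library 1 was the lowest of its group in 49.3% of the 18317 transcripts and control library 3 in 57.7%. RNA of all tissues was pooled, so more cells of a type and more RNA per cell cannot be told apart.

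Planarians renew their tissues from neoblasts, the dividing stem cells of the adult. The epidermis is fed by a neoblast subclass whose offspring leave the cell cycle, pass through early and late progenitor states in a fixed order while moving outward, and end as surface cells. Myb proteins are transcription factors that bind DNA through repeated Myb domains, and the series asks what Smed-myb-1 does at the early step of that order. The tables name transcripts by SmedASXL identifiers and pair 0 of them with a gene, so neither the function of a member nor the level of Smed-myb-1 itself was analysed here. For the same reason no marker of a planarian cell type could be read, and the members are described by level, size and pattern. CPM is not corrected for transcript length, so levels are not compared between transcripts.

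As a sum, the members took 1812.1, 1862.0 and 1981.4 CPM of myb-1 RNAi libraries 1, 2 and 3, against 1091.0, 1053.0 and 1162.1 CPM in control libraries 1, 2 and 3. The sums of the groups cannot overlap, because no member's libraries do, and within a group they were similar. The means were 1885.1 ± 87.0 CPM in myb-1 RNAi animals and 1102.1 ± 55.4 CPM in control animals (SD, n = 3 each), a ratio of 1.71. This is 0.189% of the reads of myb-1 RNAi animals and 0.11% of those of control animals. Without the 3 members of largest ratio, the sums were 1808.2 ± 60.7 and 1084.1 ± 45.5 CPM, a ratio of 1.67.

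Most members differed by little more than the rule asks. The median ratio of mean CPM was 1.65, with quartiles of 1.59 and 1.85, against a median of 0.981 over all 18317 transcripts of that control level. Of the 83, 60 lay under 1.8 and 13 reached 2. Only 3 exceeded 3, and the largest ratio was 5.68. On the log2(CPM + 0.5) scale the members' changes ran from 0.46 to 2.43 with a median of 0.67, and the median of all tested transcripts was -0.025.

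The largest ratio with tight replicates belonged to SmedASXL_005696. In myb-1 RNAi libraries 1, 2 and 3 it had 12.7, 12.3 and 15.2 CPM, against 2.52, 3.21 and 3.36 CPM in control libraries 1, 2 and 3. Its lowest myb-1 RNAi library was 3.65 times its highest control library, the widest separation among the members. The means were 13.4 ± 1.6 CPM in myb-1 RNAi animals and 3.03 ± 0.45 CPM in control animals (SD, n = 3 each). By summed reads, 1418 in myb-1 RNAi libraries and 325 in control libraries, the ratio was 4.41 with a 95% exact interval of 3.9 to 4.99. Such intervals cover counting error only, not the variation between animals.

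SmedASXL_019193 showed the next widest separation, at 2.09. It stood at 16.6, 16.4 and 15.1 CPM in the myb-1 RNAi libraries, against 6.03, 4.11 and 7.21 CPM in the control libraries, always in the order 1, 2, 3. The myb-1 RNAi libraries nearly coincided and the control libraries were spread over a 1.76-fold range. SmedASXL_005024 had the third widest separation, 2.04. It had 3.62, 2.71 and 3.25 CPM in myb-1 RNAi libraries, against 1.01, 1.18 and 1.33 CPM in control libraries. Counting error weighs more here, since these are 343 reads in myb-1 RNAi libraries and 126 in control libraries, a ratio of 2.75 with an interval of 2.24 to 3.4. These 3 members were the only ones with a separation of at least 2.

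The other 3 of the 4 largest ratios came from members that were variable within both groups. In myb-1 RNAi libraries 1, 2 and 3, SmedASXL_018645 had 11.2, 17.3 and 25.2 CPM, against 1.71, 1.94 and 5.8 CPM in control libraries 1, 2 and 3. SmedASXL_006851 had 24.6, 48.8 and 63.7 CPM in myb-1 RNAi libraries, against 8.6, 5.96 and 20.7 CPM in control libraries. SmedASXL_004055 had 2.87, 4.82 and 5.72 CPM in myb-1 RNAi libraries, against 1.19, 1.07 and 2.41 CPM in control libraries. In all 3 the groups did not overlap, library 3 was the highest of both groups, and myb-1 RNAi library 1 was the lowest of its group. Their ratios of means were 5.68, 3.88 and 2.87, but their lowest myb-1 RNAi library was only 1.92, 1.19 and 1.19 times the highest control library.

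**Figure D1:**
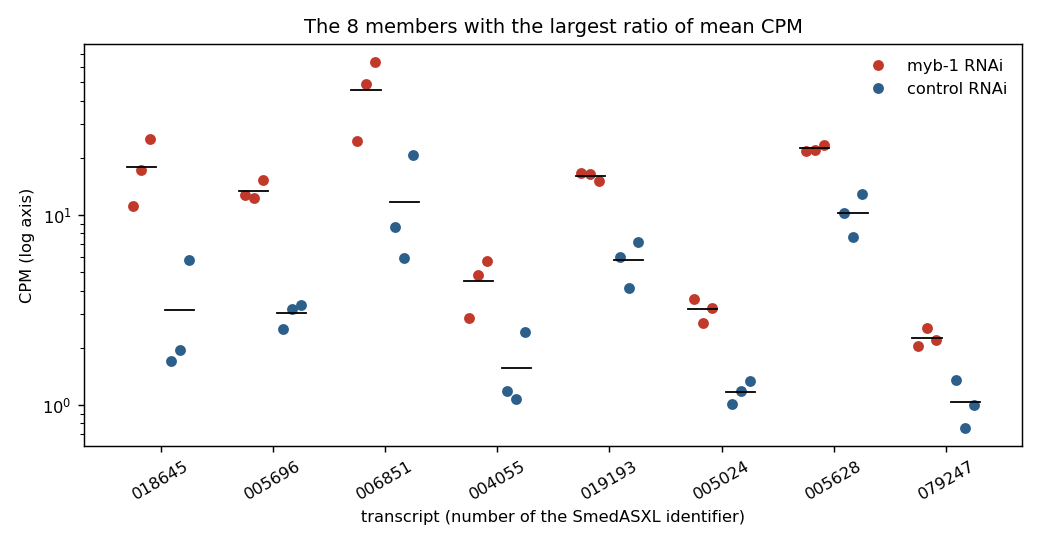
CPM per library on a log axis for the 8 members with the largest ratio of mean CPM, largest at the left. Red points are the 3 myb-1 RNAi libraries and blue points the 3 control libraries of each transcript, in the order 1, 2, 3, and black lines are group means. SmedASXL_005696 shows a wide gap and little spread, whereas SmedASXL_006851 runs from 24.6 to 63.7 CPM in myb-1 RNAi and from 5.96 to 20.7 CPM in control animals.

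SmedASXL_005628 and SmedASXL_079247 close the 8 largest ratios, at 2.18 and 2.17. SmedASXL_005628 had 21.8, 22.1 and 23.4 CPM in myb-1 RNAi libraries, against 10.2, 7.68 and 12.9 CPM in control libraries. SmedASXL_079247 had 2.04, 2.54 and 2.21 CPM in myb-1 RNAi libraries, against 1.36, 0.76 and 1.0 CPM in control libraries. In both, the control libraries spread more than the myb-1 RNAi libraries. SmedASXL_079247 lies close to the lower limit of control level and rests on 111 control reads.

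The 4 members with the highest control means rest on many reads. SmedASXL_013033 had 144.8, 127.7 and 137.6 CPM in myb-1 RNAi libraries, against 79.3, 85.0 and 76.7 CPM in control libraries. That is 14566 reads in myb-1 RNAi libraries and 8583 in control libraries, for a ratio of 1.71 with an interval of 1.67 to 1.76. SmedASXL_010898 averaged 123.7 ± 2.6 CPM in myb-1 RNAi animals and 77.8 ± 5.0 CPM in control animals, and SmedASXL_008361 averaged 114.5 ± 2.2 and 76.3 ± 3.3 CPM (SD, n = 3 each). For these 3 the spread of either group is small beside the difference. SmedASXL_004167 had a like mean difference, 118.3 ± 18.9 CPM in myb-1 RNAi animals and 74.2 ± 10.5 CPM in control animals (SD, n = 3 each), with far more spread. Its highest library was 1.38 times the lowest in myb-1 RNAi and 1.33 times in control animals, with the groups 1.18-fold apart.

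Members were found over the whole range of control levels. They numbered 19 of 3924 transcripts between 1 and 2 CPM, 23 of 3600 between 2 and 5 CPM, 11 of 2588 between 5 and 10 CPM and 16 of 2850 between 10 and 20 CPM. Above that there were 7 of 3602 between 20 and 50 CPM and 7 of 1753 between 50 and 100 CPM. The share of transcripts that were members lay between 0.194% and 0.639% in these 6 classes, lowest between 20 and 50 CPM and highest between 2 and 5 CPM. The members' median ratio was 1.61 to 1.67 in every class, which the lower limit of 1.5 holds close to itself at any level. The highest ratio was 5.68 between 2 and 5 CPM, 1.74 between 20 and 50 CPM and 1.89 between 50 and 100 CPM, and the 13 ratios of 2 or more all came from control means under 20 CPM. Across the 83 members, Spearman's rho between ratio and control mean was -0.1, a description only, since both values come from the same control libraries.

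**Figure D2:**
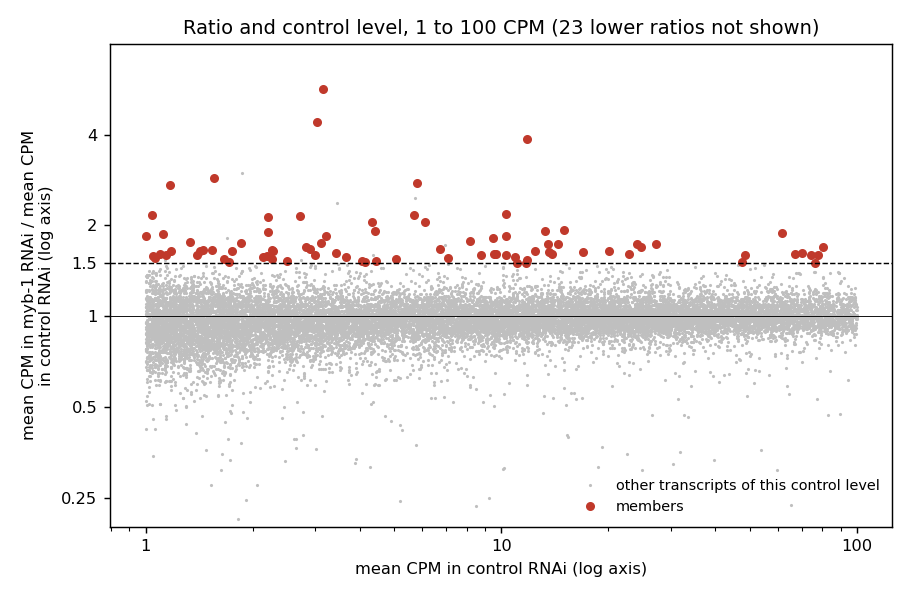
Ratio of mean CPM, myb-1 RNAi over control RNAi, against the mean control CPM for the 18317 transcripts with a control mean of 1 to 100 CPM, both axes logarithmic. Red points are the 83 members and grey points all other transcripts; the dashed line marks the ratio of 1.5 and the solid line equality. Members lie along the whole range of control levels, most of them close above the dashed line.

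The same rule turned round, a fall of at least 1.5-fold with every myb-1 RNAi library under every control library, was met by 248 transcripts of this control level. Without the limit of size the sides were nearer, with 1875 transcripts higher and 2135 lower in every myb-1 RNAi library than in every control library. Rises of at least 1.5-fold were the smaller side, 83 against 248. Under 3 other scalings, compared after seeing the data, there were 77 to 102 such rises and 203 to 288 such falls. The imbalance was widest at low level, with 19 rises and 98 falls between 1 and 2 CPM, and narrowest between 10 and 20 CPM, with 16 rises and 22 falls. Both sides were counted by control mean, so the 2 counts are not mirror images. Falls that end under 1 CPM were counted, while 44 such rises from control means of 0.5 to 1 CPM were not. How far this shapes the imbalance was not tested.

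The separation of the groups was modest in most members. The lowest myb-1 RNAi library was at a median of 1.42 times the highest control library, from 1.03 to 3.65. It reached 1.5 times in 22 members and stayed under 1.2 times in 14. Without regard to size, the myb-1 RNAi libraries lay above all control libraries in 1875 of the 18317 transcripts of this control level, or 10.2%. Since the rule used this condition, all 83 members meet it. The smallest separation was that of SmedASXL_014974, with 4.01, 5.51 and 6.85 CPM in myb-1 RNAi libraries, against 3.01, 3.91 and 2.41 CPM in control libraries. SmedASXL_070717 followed, with 1.46, 2.01 and 1.83 CPM in myb-1 RNAi libraries, against 1.22, 1.38 and 0.705 CPM in control libraries.

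Within groups, 69 of the 83 members were steady, with a highest library under 1.5 times the lowest in both groups. The other 14 passed that spread in at least 1 group, and 4 of them in both. Their median ratio was 2.01 against 1.63 for the steady ones. Widely spread libraries overlap more easily at a given ratio, so the rule bears on both values. Nothing is read from this order, and what it comes from was not tested. Over all members the median coefficient of variation was 8.21% in myb-1 RNAi libraries and 9.87% in control libraries. The spread expected from counting, taken from each member's mean reads, had medians of 5.05% and 7.95%. That expected spread is not an estimate from 3 libraries, so the difference does not measure the variation beyond counting. Over all transcripts of this control level the median coefficient of variation was 7.17% in myb-1 RNAi and 8.07% in control libraries. The members rest on 174 to 14566 reads in the 3 myb-1 RNAi libraries and on 108 to 8583 in the 3 control libraries.

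**Figure D3:**
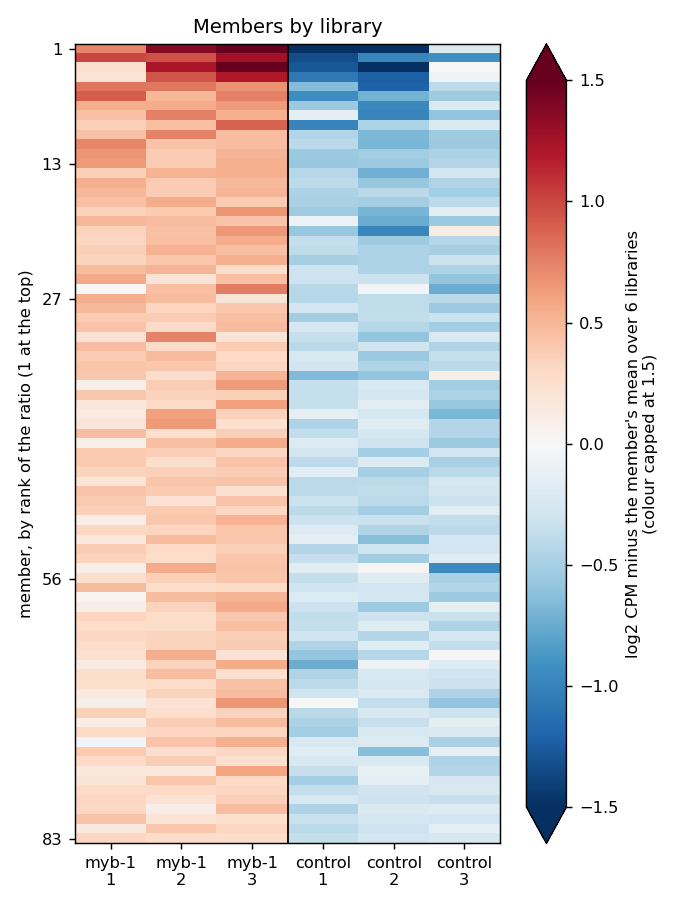
The 83 members in rows, ordered by ratio from the largest at the top, and the 6 libraries in columns, myb-1 RNAi at the left of the black line. Colour is log2 CPM less the member's mean over the 6 libraries, red above and blue below, capped at 1.5. The left columns are red and the right columns blue in nearly all rows, as the rule requires, and the strongest colours and the most uneven rows are at the top.

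The libraries did not contribute evenly to the pattern. Library 3 was the highest of its group in 44 of the 83 members in myb-1 RNAi and in 34 in control animals, or 53.0% and 41.0%. Over all transcripts of this control level these shares were 39.0% in myb-1 RNAi and 12.3% in control libraries. Control library 3 was thus seldom the highest among transcripts at large and often the highest among the members. It was the highest together with myb-1 RNAi library 3 in 21 members, or 25.3%, against 5.56% of all transcripts of this level. Of the 14 variable members, 7 had this pattern. Since the rule used the values of all 6 libraries, these shares are a description, and what they come from was not tested.

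An overlap of the groups kept 8 more transcripts out of the set, all with a ratio of at least 1.5. In 7 of these 8, library 3 was again the highest of both groups. The largest, SmedASXL_001082, picked after its values were seen, had 2.75, 6.14 and 7.7 CPM in myb-1 RNAi libraries, against 1.65, 1.07 and 2.85 CPM in control libraries. Only myb-1 RNAi library 1 lay below control library 3, while the other libraries were apart. The ratio of its means was 2.98, above that of all but 3 members.

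The edge of the rule falls in a dense region. Members just inside it were SmedASXL_008361 and SmedASXL_017854, both with a ratio of 1.501, and just outside lay SmedASXL_019528 at 1.497 and SmedASXL_005527 at 1.491. SmedASXL_017854 had 15.9, 19.1 and 17.7 CPM in myb-1 RNAi libraries, against 10.8, 11.5 and 12.9 CPM in control libraries. SmedASXL_019528 had 15.1, 15.1 and 15.7 CPM in myb-1 RNAi libraries, against 9.15, 10.6 and 11.0 CPM in control libraries. The 2 are alike in level and size, and only the limit puts them on different sides. Between 1.4 and 1.5 there were 64 further transcripts that met the other conditions, and 27 members lay under 1.6. A lower control level, of 0.5 to 1 CPM, added 44 transcripts, and among the 1610 transcripts averaging 100 CPM or more in control animals, 8 met the other conditions.

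A test across all transcripts was set beside the rule. limma called 69 of the 83 members higher at a Benjamini-Hochberg adjusted p below 0.05, where 2.78% of the 25832 tested transcripts were called higher. edgeR's quasi-likelihood test on whole reads called 72, against 3.19% of those tested, and the authors' deposited table, from DESeq2, called 74, against 3.88% of the transcripts that have an adjusted p there. All 3 called 67. Because the rule and the tests use the same contrast, these counts say how strictly the rule chose and nothing more. In the authors' deposited table the members' log2 changes ran from 0.61 to 2.49, with a median of 0.76.

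Of the 14 members that limma did not call, 9 had a control mean under 2 CPM, SmedASXL_004055 and SmedASXL_070717 among them. The other 5 were SmedASXL_018645, SmedASXL_006851, SmedASXL_004167 and SmedASXL_014974, whose uneven libraries are given above, and SmedASXL_016083, picked after its values were seen. SmedASXL_016083 had 41.2, 59.4 and 40.3 CPM in myb-1 RNAi libraries, against 27.8, 23.4 and 30.3 CPM in control libraries, so myb-1 RNAi library 2 alone stood out. Of the steady members limma called 62 of 69, and of the variable ones 7 of 14. The uncalled members held 3 of the 4 largest ratios, those of SmedASXL_018645, SmedASXL_006851 and SmedASXL_004055. These 3 calls depend on the tool and its settings, since limma without its robust option called all 3. edgeR, like limma with the settings used here, did not call any of the 3. DESeq2 run on the whole reads called all 3, and the authors' deposited table called SmedASXL_018645 and SmedASXL_004055.

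To see the change in libraries that had no part in picking the transcripts, the rule was applied to 2 libraries of each group. The change was read in the remaining pair, in all 9 ways. The limits of the rule itself were set with earlier results of these data known. With myb-1 RNAi library 2 or 3 left out, 86 to 107 transcripts were chosen. Of these, 65 to 75 were members, and a member is by definition higher in every pair. Their median log2((CPM + 0.5) ratio) in the left-out pair was 0.55 to 0.67, close to the 0.63 to 0.70 in the libraries that chose them, and -0.04 to 0.08 over all transcripts of that control level. In these 6 ways, 91.2% to 98.8% of the chosen transcripts were higher in the left-out myb-1 RNAi library than in the left-out control library. Over all transcripts of that level the share was 43.3% to 66.8%. At least 1.5-fold higher were 52.3% to 67.8% of the chosen transcripts, against 1.91% to 3.16% of all transcripts of that level.

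In the 3 ways with myb-1 RNAi library 1 left out, values set apart after they were seen, the change was smaller in the left-out pair than in the choice. More transcripts were chosen, 143 to 168, of which 73 to 77 were members. The median of the chosen transcripts in the left-out pair was 0.28 to 0.42. It was 0.59 to 0.61 in the libraries that chose them, and -0.11 to 0.01 over all transcripts of that level. Of the chosen transcripts 72.6% to 77.4% were higher in myb-1 RNAi library 1 than in the left-out control library. Over all transcripts of that level the share was 31% to 51.7%. At least 1.5-fold higher were 34.5% to 37.7% of the chosen transcripts, against 0.838% to 1.38% of all transcripts of that level. With all 3 control libraries kept and only myb-1 RNAi library 1 left out, 122 transcripts met the rule, of which 79 were members and 43 were not. Library 1 was the most deeply sequenced, with 41145013 reads. The 9 ways share libraries and transcripts, so they are given as values without a test.

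**Figure D4:**
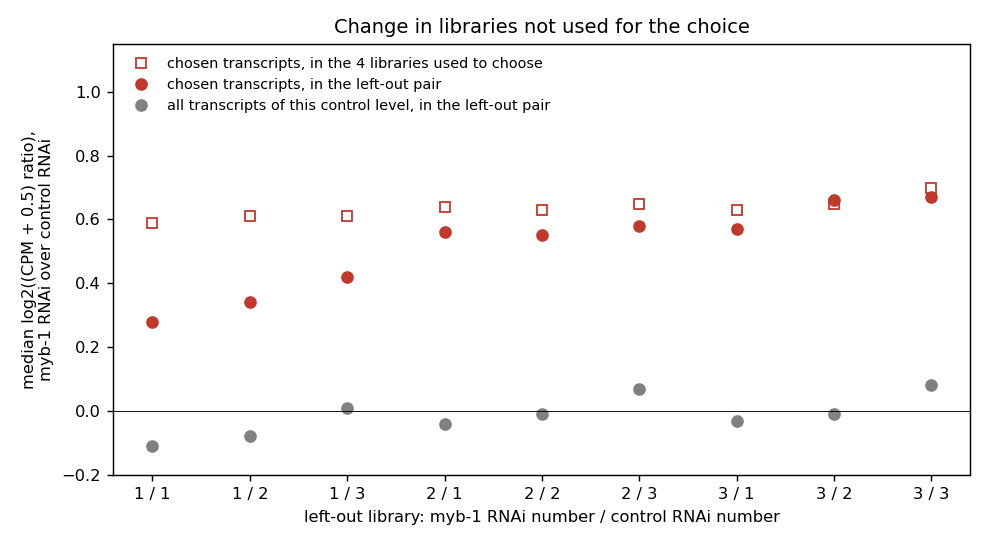
Median log2((CPM + 0.5) ratio), myb-1 RNAi over control RNAi, for the 9 left-out pairs of 1 myb-1 RNAi and 1 control library, named on the horizontal axis by library number. Open squares are the chosen transcripts in the 4 libraries used to choose them, filled red points the same transcripts in the left-out pair, and grey points all transcripts with a control mean of 1 to 100 CPM in the left-out pair. Red points lie above grey points in all 9 ways and are lowest, at 0.28 to 0.42, in the 3 ways without myb-1 RNAi library 1.

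Among single libraries left out, 56 of the 83 members met the rule in the remaining 5 libraries whichever library was dropped. Of the 13 members with a ratio of at least 2, 12 did so, including SmedASXL_018645, SmedASXL_005696 and SmedASXL_006851. Dropping a library cannot make the groups overlap, so a member is lost only if its ratio or control mean leaves the limits. A large ratio makes such a loss unlikely beforehand, and no stability is read from it. The exception was SmedASXL_079247, by its level: control libraries 2 and 3, at 0.76 and 1.0 CPM, average under the control minimum of 1 CPM. The fewest members, 69, were kept without control library 1 and the most, 79, without myb-1 RNAi library 1. Each library was run on 2 sequencing lanes, and the deposited CPM of lane 2 alone gave 94 transcripts by the same rule, of which 67 were members. A member's ratio in this lane was 0.786 to 1.23 times its ratio over both lanes of the same libraries.

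Some members carry consecutive identifiers. In 3 pairs both transcripts were members, SmedASXL_013166 with SmedASXL_013167, SmedASXL_014973 with SmedASXL_014974, and SmedASXL_018717 with SmedASXL_018718, picked after their values were seen. What neighbouring numbers mean in the assembly is not given in the sources used here, and reads that fit both transcripts of a pair could have been split between them. SmedASXL_014973 had 9.07, 11.2 and 13.4 CPM in myb-1 RNAi libraries, against 6.81, 7.37 and 6.02 CPM in control libraries. SmedASXL_014974, given above, ranks the 6 libraries within groups in the same order at about the same ratio, 1.75 against 1.67. SmedASXL_018717 had 107.7, 102.7 and 113.2 CPM in myb-1 RNAi libraries, against 66.6, 58.9 and 75.9 CPM in control libraries. SmedASXL_018718 had 26.7, 29.8 and 30.4 CPM in myb-1 RNAi libraries, against 15.4, 12.6 and 17.1 CPM in control libraries. The control libraries of this pair rank alike, with library 2 lowest and library 3 highest, and the myb-1 RNAi libraries share only library 3 as the highest. SmedASXL_013166 and SmedASXL_013167 differed in ratio, 1.56 and 1.85, and both varied little within groups.

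**Figure D5:**
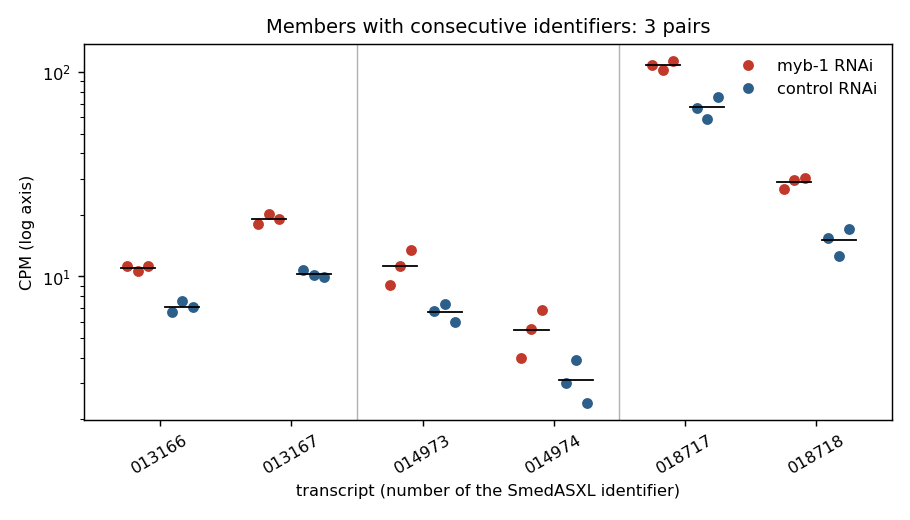
CPM per library on a log axis for the 3 pairs of members with consecutive identifiers, separated by grey lines. Red points are myb-1 RNAi libraries and blue points control libraries, in the order 1, 2, 3, and black lines are group means. The transcripts SmedASXL_014973 and SmedASXL_014974 step up alike over the myb-1 RNAi libraries, which the other pairs do not.

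Beyond these pairs, the members had 90 neighbours 1 number away that were not members and had a control mean of 1 to 100 CPM. Their median ratio was 1.0, close to the 0.981 of all transcripts of that level. A part of them leaned upward all the same. Of the 90, 10 reached a ratio of 1.2, or 11.1%, against 4.98% of all transcripts of that level, and in 20 the myb-1 RNAi libraries lay above all control libraries, or 22.2%, against 10.2%. Among them was SmedASXL_017390, next to the member SmedASXL_017391 and also picked after its values were seen, which missed the rule by overlap at a ratio of 1.53. These shares are descriptions, since neighbours may share reads with the members.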

How the data were processed

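Libraries were poly(A)-selected TruSeq preparations, per the labels' protocols. Of the tools bcl2fastq 1.8.3, Bowtie2 2.2.4 and DESeq2, the submitters' processing notes give no roles, and for read counter and reference the sources used here name none. Sample labels list differing strain numbers, so the strain of the growth protocol was used. The authors deposited CPM per lane, used by group for lane 2 while the 6 columns of the other lane were not used, and a DESeq2 table with log2 fold changes, standard errors, p-values and signal columns, which are read counts divided by 1 factor per library: 100% of deposited values were whole multiples of 1 step within 0.001. The row *, 5.42% to 6.24% of reads, names no transcript and was dropped. The libraries then held 30311289 to 41145013 reads, and 1 read is worth 0.0243 to 0.033 CPM.

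CPM were computed from the signal columns. limma 3.58.1 (R 4.3.3, trend and robust) was run on log2(CPM + 0.5), with Benjamini-Hochberg adjustment. It covered the 25832 transcripts that reached 0.5 CPM in 3 libraries or more, all 83 members among them. A check on simulated data came first. It gave every transcript the same spread setting, so it does not bear on members with widely spread libraries. edgeR 4.0.16 and DESeq2 1.42.0 used the recovered whole reads. Members, lists and tests were chosen with earlier results of these data known. Named transcripts are the 8 largest ratios, the 4 highest control means, the 2 just inside and 2 just outside the fold limit, and the 2 widest and 2 narrowest separations; others are said to be picked afterwards. Marker lists matched 0 identifiers. Alternatives were other scalings, pseudocounts, filters, thresholds, tools, limma without its robust option, the replicate number as a term, and libraries left out. Exact intervals are conditional binomial ones. No 2 libraries of a group were merged, since the mean chi-square between their reads was 2.83 to 38.3, where sampling noise gives a mean of about 1. The median over transcripts was 0.63 to 1.24, so a part of the transcripts carried the high means. The noise value of about 1 holds for a mean and not for a median. These medians therefore do not show that the other transcripts varied by sampling noise only.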

Additional observations from a re-analysis of the deposited data

How the results depend on the processing

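The size of the set follows its limits. A fold limit of 0.32 on the log2 scale gave 428 transcripts, a limit of 2-fold gave 13, and a control minimum of 0.5 CPM gave 127. The other scalings and totals and lane 2 alone gave 76 to 102, and TMM (94) and median-of-ratios scaling (102) kept all 83 members. Totals without the variable abundant SmedASXL_012104, chosen after seeing the data like the pseudocounts for the left-out pairs, gave 77. Leaving out 1 library, or 1 of each group, gave 81 to 168 transcripts, the highest without library 1 of both groups. limma's 69 called members became 55 to 77 over all alternatives, 56 to 72 without 1 library and 71 with the replicate block. Libraries with the same number deviated together only weakly (correlations of 0.08, 0.03 and 0.04, under 0.1; the best match had the same number for 4 of 6), so the numbers were not used as pairs. The ratio of summed CPM was 1.67 to 1.76 without 1 library, 1.74 with TMM and 1.75 with median-of-ratios scaling. The median change in left-out pairs, 0.56, was 0.60 and 0.52 with pseudocounts of 0.1 and 1.

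Of the 17 named transcripts, limma called 11, and 7 of these in all 17 alternatives. SmedASXL_019193 lost its call without control library 1 (1.47 on the log2 scale), and SmedASXL_005628 without control library 1 (1.13) or myb-1 RNAi library 1 (1.14). SmedASXL_005024 and SmedASXL_079247 were not called in DESeq2 (1.46 and 1.13), where a missing adjusted p counted as no call. The authors' deposited table called both. The 6 uncalled ones each passed in at least 1 alternative. With the replicate block SmedASXL_018645, SmedASXL_004055, SmedASXL_004167 and SmedASXL_014974 passed. These 4 and SmedASXL_006851 passed with DESeq2, and likewise with limma without its robust option. SmedASXL_018645 also passed without control library 3 (2.91) and SmedASXL_004055 without it (1.56) or without myb-1 RNAi library 1 (1.54). No sign changed, and the cause of these moves was not tested. Depth limits the members of about 1 CPM, which rest on as few as 108 control reads.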
